A study of Bos taurus with 11 samples.

Results

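Molecular chaperones of the cytosol and mitochondria, with their co-chaperones, were followed in single bovine early blastocysts. Members were all rows whose RefSeq transcript maps to a bovine symbol beginning with HSPA, HSPB, HSPD, HSPE, HSPH, HSP90A, DNAJ, PFDN, CCT or BAG (a digit after the last 2), together with TCP1. HSPA5 and DNAJB9 of the endoplasmic reticulum (ER) were left out. The rule used names only and no measured value. It caught 91 bovine symbols. Of these, 66 were listed among the 8576 transcripts of the GATA3 KO table and 78 among the 12047 transcripts of the CDX2 KO table, where HSPD1 had 2 rows, so that this table held 79 rows. All 66 genes of the former were also in the latter, 12 genes were in the CDX2 KO table alone, and 13 genes were in neither table. The prefixes also took in HSPBP1 and HSPBAP1, which are not small heat shock proteins, and members that reside in the ER, among them DNAJB11, DNAJB12, DNAJB14, DNAJC3, DNAJC10 and HSPA13.

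The embryos were made in vitro from zygotes that all received mRNA for BE3, a cytosine base editor that can turn codons into premature stops. WT embryos (n = 3) received the editor mRNA alone, GATA3 KO embryos (n = 4) also received a mixture of sgRNAs against GATA3, and CDX2 KO embryos (n = 4) a mixture against CDX2. Each library came from 1 blastocyst collected 7 days after fertilization, so each n counts embryos, and an edited embryo can be a mosaic of cells with different edits. GATA3 and CDX2 are transcription factors of the trophectoderm, the outer layer of the blastocyst that later forms the fetal part of the placenta, and the comparison asks how chaperone transcripts differed when either was disrupted. Values are normalized counts, that is read counts divided by a size factor for each library. The same 3 WT embryos served as controls in both tables, which were normalized separately, so values of the KO groups are given side by side and were not tested against each other.

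Chaperones bind unfolded or partly folded proteins and help them fold, assemble, cross membranes or reach the proteasome. Some of them, HSP70 and HSP90 among these, work by cycles of ATP binding and hydrolysis. HSP70 proteins are recruited to clients by J-domain proteins (the DNAJA, DNAJB and DNAJC families) and are reset by exchange factors such as HSPH1 and the BAG proteins. HSP90 acts later, on kinases, hormone receptors and other nearly folded clients. The ring-shaped chaperonin TRiC (also CCT) folds actin and tubulin, which prefoldin delivers to it, and HSPD1 with its lid HSPE1 forms the corresponding chamber in mitochondria. In mice, inducible HSP70 genes are known to be among the first transcribed from the embryonic genome.

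Counts summed over the listed transcripts were low, from 150057 to 540775 in the GATA3 KO table and from 100731 to 662962 in the CDX2 KO table. CDX2 KO embryos 3 and 2 had the fewest counts of the latter (100731 and 218797). Tests used transcripts with a mean normalized count of at least 10, which kept 43 members of 4271 transcripts and 52 members of 5719 transcripts in the 2 tables. A transcript was called when limma's adjusted p was at most 0.05 and its fold change was at least 1.5 or at most 0.6. The keratins KRT8 and KRT18 of the trophectoderm were present in every embryo at normalized counts of 717.7 or more. POU5F1 was also present in every embryo. It does not mark the inner cell mass alone, since the paper saw its protein OCT4 in trophectoderm cells too. NANOG was at 0 in GATA3 KO embryo 3 and CDX2 KO embryo 4 with overlapping groups in both tables. The cumulus and sperm markers that were listed did not exceed 19.6. Other lineage markers differed with the groups. In GATA3 KO embryos GATA2 was called lower (log2 fold change -1.16, adjusted p 0.0344, limma) and TFAP2C was called higher (1.03, adjusted p 0.0442). KRT18 (-0.77) and SOX2 of the inner cell mass (-0.95) had no call. CDX2 transcript, too low to test, stood there at 2.89, 3.45, 0 and 2.46, against 7.10, 9.73 and 4.66 in WT. In CDX2 KO embryos GATA2 lay wholly below WT (-0.85, adjusted p 0.900, limma). KRT8 (-0.95), KRT18 (-0.65), NANOG (-1.60), GATA3 (-0.51) and SOX2 (-0.02) were also below 0 in that group. TFAP2C (0.19) and POU5F1 (0.24) were above 0, and none was called. Their part in the chaperone results was not tested. GATA3 transcript stood at 87.6, 71.3 and 80.8 in WT and at 13.0, 12.9, 13.1 and 9.85 in GATA3 KO embryos, and CDX2 transcript at 8.88, 11.1 and 6.88 in WT and 3.68, 4.66, 1.66 and 4.30 in CDX2 KO embryos. Transcripts of the Y chromosome (up to 4 genes summed) were counted at 50, 98 and 29 in WT and 0, 0, 2 and 68 in GATA3 KO embryos 3 to 6, and at 80, 149 and 46 in WT and 0, 0, 0 and 155 in CDX2 KO embryos 2 to 5. No member lies on the X or Y chromosome. In a whole blastocyst, fewer cells of a type cannot be told apart from less RNA per cell.

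In GATA3 KO blastocysts, 3 chaperone members of 43 were called, where 2.01% of all transcripts were, and all 3 were higher than in WT. They were the TRiC subunit CCT6A and the J-domain proteins DNAJA1 and DNAJB1, partners of cytosolic HSP70. Over all transcripts tested, 1.55% were called higher and 0.468% lower (66 and 20 transcripts, against 48 and 57 after quantile normalization, which called the same 3 members). Of the 43 tested members, 33 had a log2 fold change above 0 and 10 below, against 57.2% above 0 over all transcripts, and the median was 0.40 against 0.11 over all transcripts. After quantile normalization 30 members were above 0, and the medians were 0.27 and 0.00. Values of 10 of the 43 members were free of overlap and higher in all 4 GATA3 KO embryos (23.3%), where the share over all transcripts was 11.9%. BAG6 alone among the tested members lay wholly below WT (7.05% over all transcripts). An unadjusted p under 0.05 was reached by 12 members (27.9%), against 22.6% of all transcripts, and all 12 were higher in KO, against 14.8% of all transcripts in that direction.

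**Figure D1:**
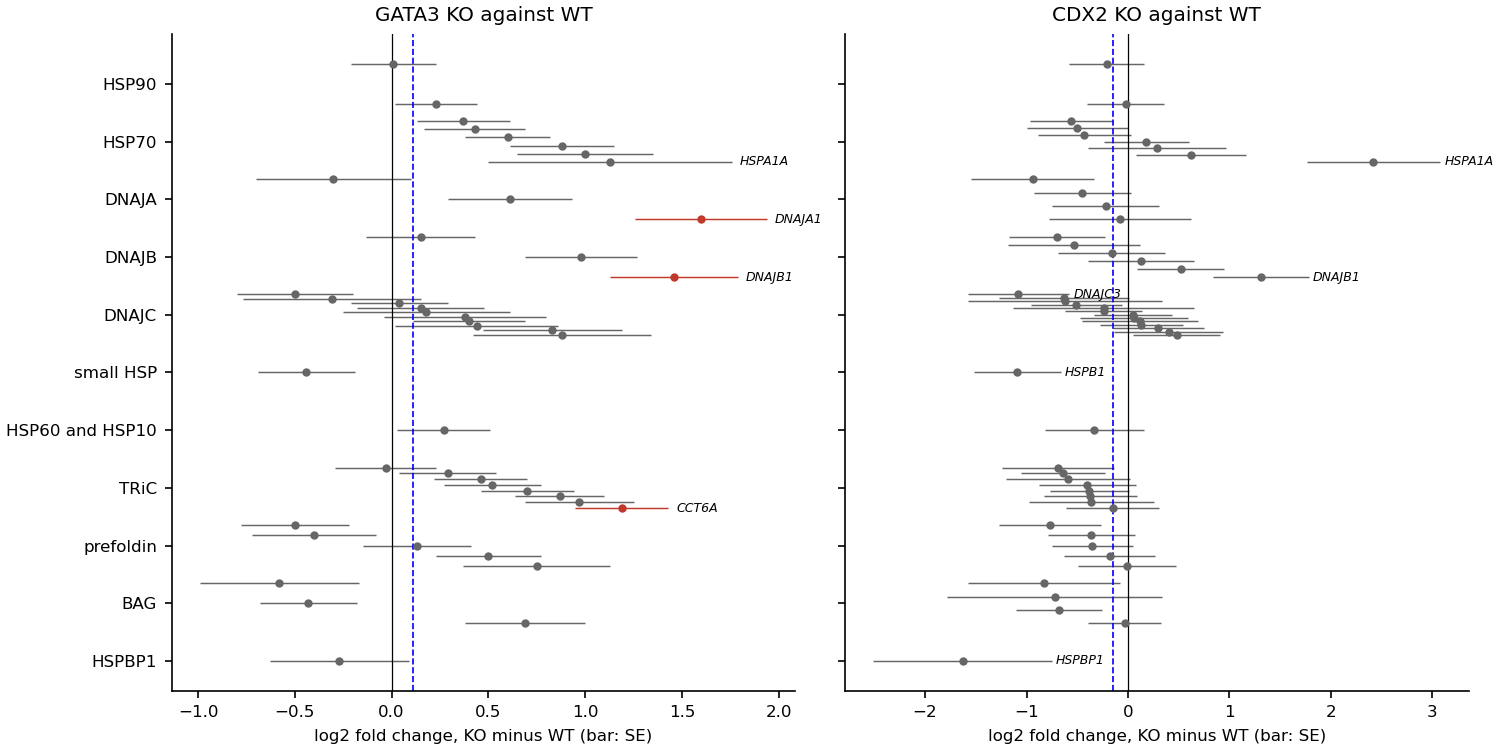
Log2 fold change of each tested member (point) with its SE (bar), KO minus WT, by family, for GATA3 KO (left, 43 members) and CDX2 KO (right, 52 members). Red marks the 3 called members, gene names mark called members and those beyond 1 in either direction, the solid line is 0 and the dashed line is the median over all transcripts tested (0.11 and -0.15). In GATA3 KO most HSP70, DNAJB and TRiC members lie to the right of both lines. In CDX2 KO every TRiC and prefoldin member lies below 0, as do 3460 of the 5719 transcripts tested.

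CCT6A, 1 of the 8 kinds of subunit in the TRiC ring, stood at 58.4, 56.2 and 54.4 in WT and at 120.1, 114.6, 159.6 and 128.9 in GATA3 KO embryos 3 to 6. The WT embryos were tightly grouped (56.3 ± 2.0, SD, n = 3) and every GATA3 KO embryo lay above them (130.8 ± 20.1, SD, n = 4). The log2 fold change was 1.19 with an SE of 0.24 and an adjusted p of 0.0211 by limma. DNAJA1, a J-domain protein that hands unfolded clients to cytosolic HSP70, stood at 41.8, 15.1 and 21.8 in WT and at 69.5, 119.8, 53.6 and 70.6 in KO. Embryo 4 was the highest of the KO embryos, and the lowest of them still lay above the highest WT embryo. Its log2 fold change was 1.6 (SE 0.34, adjusted p 0.0245, limma). DNAJB1, the J-domain partner of HSP70 that is strongly induced by heat shock, stood at 14.2, 8.65 and 9.33 in WT and at 40.5, 35.3, 31.0 and 19.7 in KO. Its log2 fold change was 1.46 (SE 0.33, adjusted p 0.0309, limma), with the value of embryo 6 nearest to the WT embryos.

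The 3 calls were sensitive to the set of embryos. When each embryo was left out in turn, CCT6A was called in 3 of 7 fits (adjusted p 0.0128 to 0.0934), DNAJA1 in 3 of 7 (0.00302 to 0.137) and DNAJB1 in 2 of 7 (0.0142 to 0.137), and no member was called without WT embryo 2, WT embryo 3 or GATA3 KO embryo 3. Those 3 fits called 1, 20 and 1 of all transcripts. The log2 fold changes held over the 7 fits, at 1.09 to 1.25 for CCT6A, 1.28 to 1.99 for DNAJA1 and 1.33 to 1.66 for DNAJB1. Only CCT6A was called without GATA3 KO embryo 4 (25 of 4273 transcripts), only DNAJA1 without embryo 5 (45 of 4274), and 9 members without WT embryo 1, a fit that called 304 of 4259 transcripts. All 3 WT embryos but only GATA3 KO embryo 6 had Y-linked counts above 3, and in that embryo CCT6A, DNAJA1 and DNAJB1 lay above every WT embryo. With a covariate for embryos that had such counts, no member was called (adjusted p 0.230, 0.295 and 0.496 for the 3 genes), and the log2 fold changes were 1.18 for CCT6A, 1.52 for DNAJA1 and 0.85 for DNAJB1. By its construction that fit takes the KO difference from embryo 6 alone.

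The TRiC subunits were nearly all on the higher side in GATA3 KO embryos. Of 8 tested subunits, 7 had a log2 fold change above 0 (57.2% over all transcripts), with a median of 0.61, and CCT8, TCP1, CCT2 and CCT6A lay wholly above WT (11.9% over all transcripts). CCT8 stood at 92.3, 95.1 and 71.5 in WT and at 176.6, 159.4, 138.2 and 158.5 in KO (log2 fold change 0.87, SE 0.23, adjusted p 0.0518, limma). TCP1, the first subunit of the complex to be described, stood at 108.1, 60.5 and 43.5 in WT and at 115.8, 138.7, 127.4 and 138.8 in KO (0.97, SE 0.28, adjusted p 0.0636). CCT2 stood at 135.7, 82.1 and 116.6 in WT and at 185.2, 170.6, 170.3 and 188.8 in KO (0.70, SE 0.24, adjusted p 0.0988). None of these 3 passed the threshold, although their groups did not overlap. Of the settings that kept all embryos, 3 called CCT8 (DESeq2, a pseudocount of 5, and a mean of at least 100) and the last of these also called TCP1 (adjusted p 0.0315 and 0.0386 there). These fits called 158, 145 and 37 of 4271, 4271 and 395 transcripts.

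The other TRiC subunits overlapped between the groups. CCT3 had a log2 fold change of 0.52 (SE 0.25), CCT5 of 0.46 (SE 0.24) and CCT4 of 0.29 (SE 0.25). CCT7 stood apart from the rest, at 86.0, 95.1 and 136.8 in WT and at 88.3, 81.9, 104.8 and 140.4 in KO, with a log2 fold change of -0.03 (SE 0.26). The count of 7 of 8 above 0 was the same after quantile normalization and after rescaling by median ratios, with medians of 0.47 and 0.50. CCT6B, a subunit known from testis, was too low to test, at 5.40 or less in every embryo. Summed over the 9 listed TRiC rows, the normalized counts were 851.4, 707.9 and 729.0 in WT and 1088, 1096, 1089 and 1316 in GATA3 KO embryos, so that no KO embryo reached down to the WT range. The rows of this sum are not independent of the values above.

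**Figure D2:**
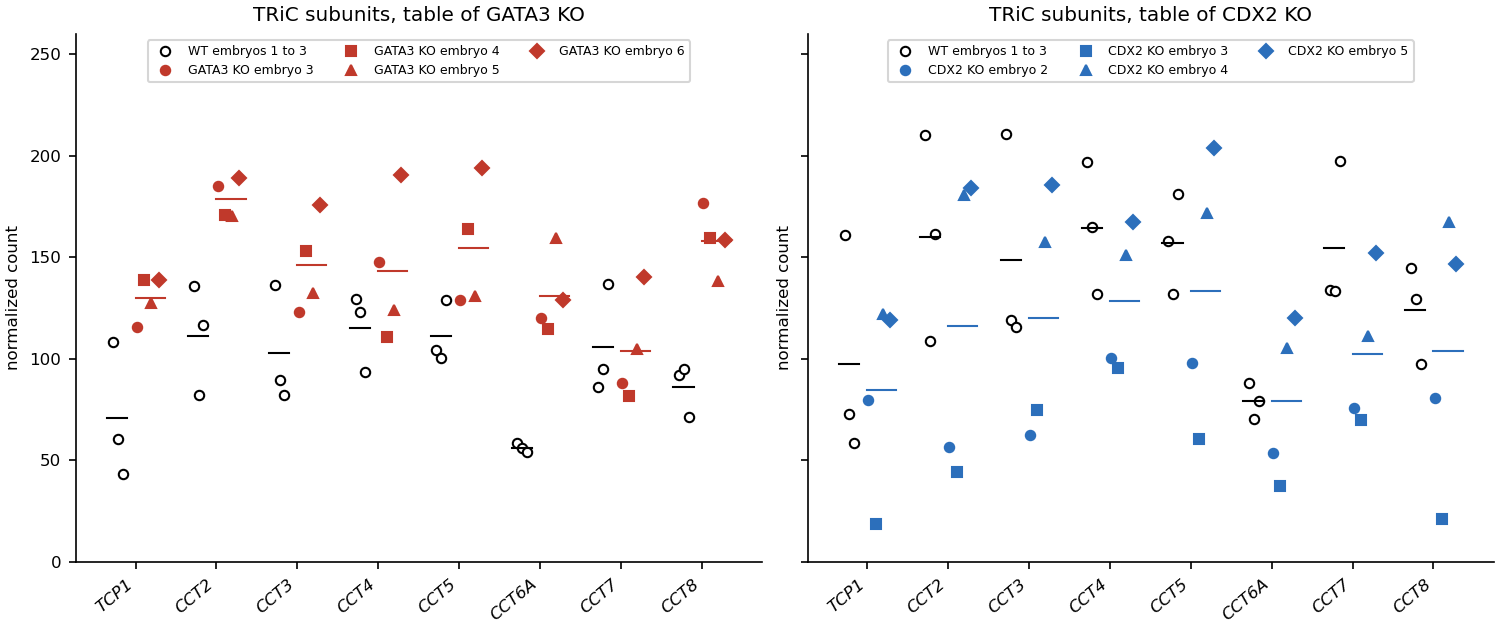
Normalized count of each tested TRiC subunit in every embryo, for the tables of GATA3 KO (left) and CDX2 KO (right), on a linear axis. Open circles are WT embryos, filled symbols are KO embryos and horizontal lines are group means. In the left plot CCT6A, CCT8, TCP1 and CCT2 do not overlap with WT, and in the right plot CDX2 KO embryos 2 and 3 lie low while embryos 4 and 5 lie among the WT embryos or above them, apart from CCT7 in embryo 4, which lies below.

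Prefoldin, the hexamer that carries actin and tubulin chains to TRiC, had no subunit called by limma in GATA3 KO embryos. Of the 5 tested subunits with PFDN symbols, 3 had log2 fold changes above 0 and 2 below, with a median of 0.13. PFDN4 had 0.75 (SE 0.38), PFDN1 0.50 (SE 0.27), PFDN2 0.13 (SE 0.28), PFDN5 -0.40 (SE 0.32) and PFDN6 -0.50 (SE 0.28), with adjusted p from 0.245 to 0.810 (limma). All 5 overlapped between the groups. The sixth subunit, VBP1, is given below with the other genes of the network.

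The HSP70 members were all on the higher side in GATA3 KO embryos, 6 of 6 tested being above 0 (57.2% over all transcripts) with a median log2 fold change of 0.74, and none was called. HSPA8, the constitutive cytosolic HSP70, stood at 953.2, 690.6 and 632.6 in WT and at 1240, 1199, 1049 and 1057 in KO. Every KO embryo lay above every WT embryo, and the log2 fold change was 0.60 (SE 0.22, adjusted p 0.126, limma). HSPH1, the large HSP110 protein that exchanges nucleotide on HSP70, stood at 42.6, 28.1 and 28.0 in WT and at 65.1, 52.6, 75.0 and 50.9 in KO (0.88, SE 0.27, adjusted p 0.0768). HSPA14, a ribosome-associated HSP70, stood at 13.4, 6.48 and 12.4 in WT and at 20.3, 25.4, 23.8 and 18.1 in KO (1.0, SE 0.35, adjusted p 0.106). These 3 of 6 lay wholly above WT (11.9% over all transcripts) but missed the threshold.

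HSPA4, a further HSP110-type exchange factor, had a log2 fold change of 0.37 (SE 0.24) and HSPA9, the mitochondrial HSP70 that drives protein import, 0.43 (SE 0.26), both with overlapping groups. HSPA1A, the inducible HSP70, rested on a single embryo, with 15.8, 4.32 and 9.33 in WT and 21.7, 85.3, 16.7 and 4.93 in KO. Its log2 fold change was 1.13 with an SE of 0.63 and an adjusted p of 0.299 (limma), and it was -0.72 with the covariate for Y-linked counts. HSPA1A has near-identical copies in mammalian genomes, so that reads may be shared between them and its counts are uncertain. Summed over the 8 listed HSP70 rows, the normalized counts were 1266, 938.0 and 859.5 in WT and 1601, 1658, 1410 and 1448 in GATA3 KO embryos, and HSPA8 made up most of each sum.

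Among J-domain proteins, 13 of 16 tested in GATA3 KO embryos had log2 fold changes above 0 (57.2% over all transcripts), with a median of 0.39, and DNAJA1 and DNAJB1 were the only ones called (2.01%). With edgeR or DESeq2, 11 of 16 were above 0 (median 0.28), and 11 of 16 without WT embryo 2 (0.17). DNAJB6, which keeps aggregation-prone proteins soluble and is needed for placental development in mice, stood at 63.1, 32.4 and 28.0 in WT and at 65.1, 88.7, 84.6 and 72.3 in KO (0.98, SE 0.29, adjusted p 0.0687, limma). HSPA14 and DNAJB6 fell outside the rule for named genes and were singled out after their values were seen, because their groups did not overlap. DNAJA3, the mitochondrial member of its family, had a log2 fold change of -0.30 (SE 0.40), and 0.46 with the covariate. Of the larger DNAJC family, 10 were tested with a median of 0.28. DNAJC19, of the inner mitochondrial membrane, had the highest (0.88, SE 0.46, but 0.17 without WT embryo 2, which had 3.24) and DNAJC11, of the outer membrane, the lowest (-0.50, SE 0.30), and no DNAJC member was free of overlap. The ER members DNAJB11, DNAJC3 and DNAJC10 were tested, with log2 fold changes of 0.15, 0.04 and 0.83, none called.

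The HSP90 transcripts had log2 fold changes near 0 in GATA3 KO embryos, and neither was called. HSP90AA1, the inducible cytosolic form, stood at 1277, 1388 and 1404 in WT and at 1062, 1226, 1519 and 1732 in KO (log2 fold change 0.01, SE 0.22), with KO embryos on either side of WT. HSP90AB1, the constitutive form, stood at 786.7, 806.2 and 735.2 in WT and at 968.2, 938.3, 942.1 and 791.5 in KO (0.23, SE 0.21). In mitochondria, HSPE1 had a log2 fold change of 0.27 (SE 0.24), and its partner HSPD1 was listed at 5.79 or less in every embryo. HSPD1 rows were named for single transcript variants, so that reads shared between variants may be missing from them and the level is uncertain. HSPB1, the abundant small heat shock protein that binds actin filaments, had a log2 fold change of -0.44 (SE 0.25), with GATA3 KO embryos at 571.6, 459.2, 980.2 and 750.4 and WT at 804.1, 917.5 and 980.8.

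Of the BAG proteins, which release clients from HSP70, 3 were tested in GATA3 KO embryos, 2 had log2 fold changes below 0 and 1 above, and none was called (median -0.43, and 0.28 with the covariate for Y-linked counts). BAG6, which guards exposed hydrophobic segments and routes failed membrane proteins to the proteasome, stood at 70.2, 76.7 and 63.7 in WT and at 39.1, 53.4, 58.4 and 59.1 in KO. The groups did not overlap, but the log2 fold change of -0.43 (SE 0.25) had an adjusted p of 0.329 (limma). BAG1 had -0.58 (SE 0.41) and BAG2, which inhibits the ubiquitin ligase CHIP, 0.69 (SE 0.31), both with overlapping groups. HSPBP1, an HSP70 exchange factor, had -0.27 (SE 0.36). With the covariate for Y-linked counts, BAG1 (0.28) and HSPBP1 (0.36) were above 0.

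**Figure D3:**
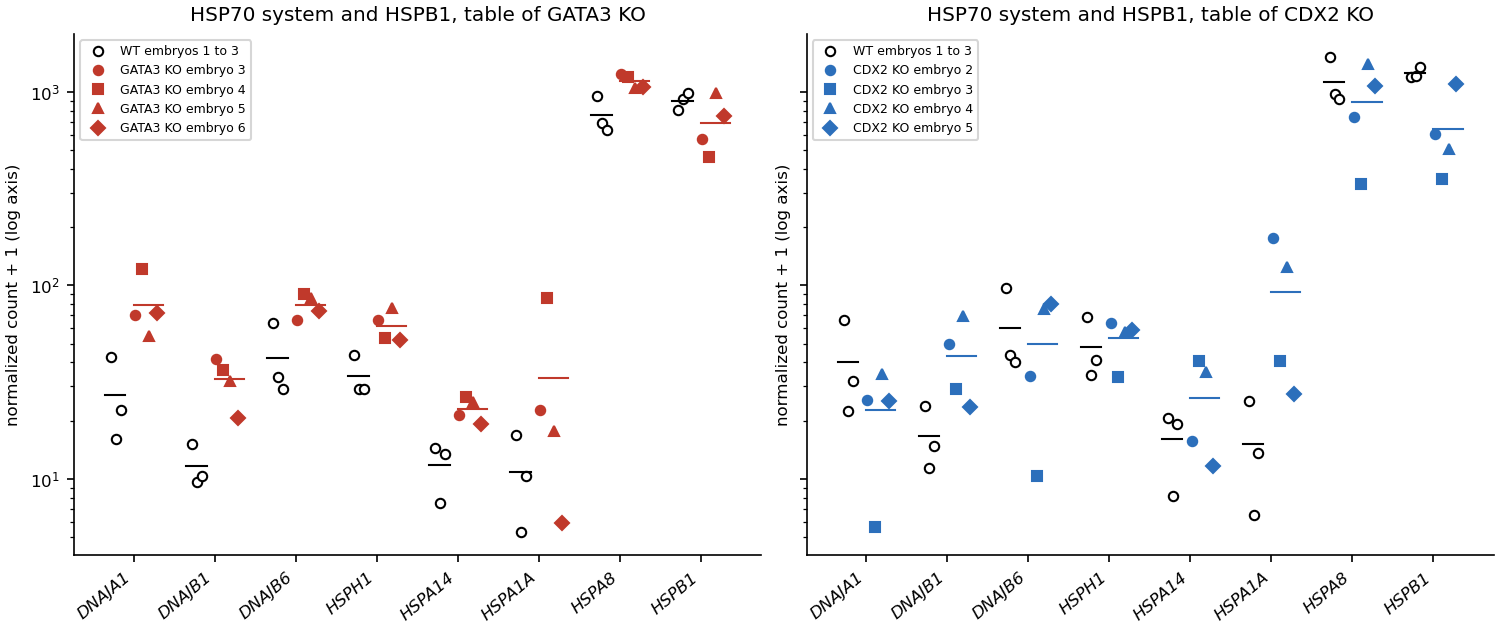
Normalized count plus 1 on a log axis for members of the HSP70 system and for HSPB1 in every embryo, for the tables of GATA3 KO (left) and CDX2 KO (right). Open circles are WT embryos, filled symbols are KO embryos and horizontal lines are group means. DNAJA1, DNAJB1, DNAJB6, HSPH1, HSPA14 and HSPA8 do not overlap with WT in the left plot, and in the right plot HSPA1A lies wholly above and HSPB1 wholly below WT.

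In CDX2 KO blastocysts, no chaperone member was called by limma, and neither was any of the 5719 transcripts tested (0.0%). At an unadjusted p under 0.05 there were 3 members of 52 (5.77%), against 3.27% of all transcripts. They were HSPA1A and DNAJB1, with higher values in KO (1.73% of all transcripts in that direction), and HSPB1, with lower values. DESeq2 on the recovered reads called 1 member, HSPA1A (adjusted p 0.00638), among 9 of 5719 transcripts. With edgeR no member was called, and 1 of 5719 transcripts was. Of the 52 members, 14 had log2 fold changes above 0 (26.9%, against 39.5% over all transcripts) and 38 below, with a median of -0.34 against -0.15 over all transcripts. This tally moved with the setting. After quantile normalization 22 of 52 were above 0 (medians -0.07 and -0.04), without embryo 3 it was 25 of 51 (-0.01 and -0.05), and with the covariate for Y-linked counts 34 of 52 (0.16 and 0.10). Lying wholly above WT were HSPA1A and DNAJC7, and wholly below HSPB1 and BAG1, where 2.52% and 3.36% of all transcripts did so.

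HSPA1A stood at 24.1, 5.53 and 12.6 in WT and at 175.3, 39.6, 122.7 and 26.3 in CDX2 KO embryos 2 to 5. The lowest KO embryo was close to the highest WT embryo, and embryos 2 and 4 were far above both. The log2 fold change was 2.42 (SE 0.66, adjusted p 0.900, limma). It stayed between 1.92 and 2.90 when each embryo was left out in turn, and was 1.06 with the covariate for Y-linked counts. DNAJB1 stood at 22.8, 10.3 and 13.8 in WT and at 49.0, 28.0, 68.0 and 22.6 in KO, with 3 of 4 KO embryos above every WT embryo (1.31, SE 0.47, adjusted p 0.900, and 0.57 with that covariate). Embryos 2 and 4 were thus the highest of the table for both genes.

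HSPB1 stood at 1199, 1208 and 1350 in WT and at 604.2, 354.2, 505.1 and 1102 in CDX2 KO embryos. All 4 KO embryos lay below WT, embryo 5 only slightly, and the log2 fold change was -1.09 (SE 0.43, adjusted p 0.900, limma). With the covariate for Y-linked counts it was -0.18. BAG1 stood at 28.5, 22.1 and 18.3 in WT and at 9.80, 11.7, 18.2 and 17.2 in KO (-0.68, SE 0.42). DNAJC7, which binds both HSP70 and HSP90, stood at 14.0, 13.4 and 9.17 in WT and at 14.7, 14.0, 21.6 and 19.3 in KO (0.48, SE 0.43), with embryo 3 above the highest WT embryo by less than the rounding shown. DNAJA1, called in the other table, stood at 65.3, 21.3 and 30.9 in WT and at 24.5, 4.66, 34.0 and 24.2 in CDX2 KO embryos (-0.94, SE 0.61). DNAJA4, the highest of the DNAJA family there, had -0.08 (SE 0.70), and -1.13 with the covariate for Y-linked counts.

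All 8 tested TRiC subunits had log2 fold changes below 0 in CDX2 KO embryos, from -0.69 for CCT2 to -0.15 for CCT6A (median -0.39), and none was called. The KO embryos were not alike. Embryo 2 lay below every WT embryo for 7 of 8 subunits and embryo 3 for 8 of 8, but embryo 4 for 1 and embryo 5 for 0. Over all 5719 transcripts, those below every WT embryo numbered 2126, 2727, 1383 and 1066 in embryos 2 to 5, the same order of embryos. The summed normalized counts of the 9 TRiC rows were 1304, 937.6 and 1025 in WT and 614.0, 431.1, 1167 and 1284 in KO embryos 2 to 5. CCT8, for example, stood at 144.6, 129.5 and 97.4 in WT and at 80.9, 21.0, 167.5 and 146.6 in KO.

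CDX2 KO embryos 2 and 3 were also the shallowest libraries of the table, and their abundant transcripts were low as a whole. Over the 473 transcripts with a mean of at least 100, the median log2 difference from the WT mean was -0.69 in embryo 2 and -1.29 in embryo 3, and over the 13 members among them it was -0.69 and -1.35. Without these 2 embryos, a choice made after seeing the data, 6 of 8 TRiC subunits had log2 fold changes above 0 (55.0% over all transcripts). Their median was 0.26, and the median over the members was 0.15 against 0.06 over all transcripts. The part of depth in the low TRiC values was not tested. After quantile normalization 6 of 8 subunits remained below 0 (3020 of 5719 transcripts), and after rescaling by median ratios 8 of 8 (2982 of 5719). With the covariate for Y-linked counts, which takes the difference from embryo 5 alone, 7 of 8 TRiC subunits (median 0.32) and 5 of 5 prefoldin subunits (median 0.20) were above 0. The share over all transcripts in that fit was 57.3%.

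**Figure D4:**
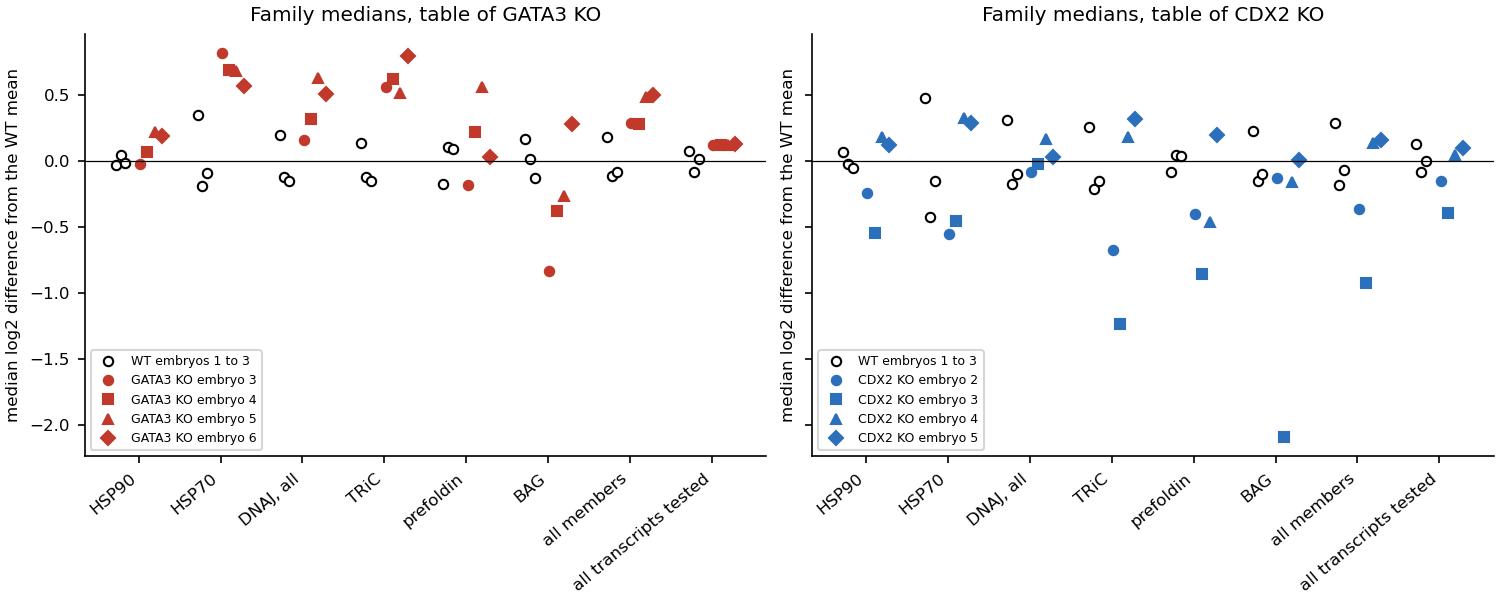
Median log2 difference of each embryo from the WT mean over the tested members of each family, for the tables of GATA3 KO (left) and CDX2 KO (right), beside all members and all transcripts tested. Open circles are WT embryos and filled symbols are KO embryos. GATA3 KO embryos lie together above WT for HSP70 (0.57 to 0.82) and TRiC (0.52 to 0.80), and CDX2 KO embryos split, with TRiC at -0.67 and -1.23 in embryos 2 and 3 and 0.18 and 0.32 in embryos 4 and 5.

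Families differed in how the CDX2 KO embryos were ordered. HSP90 was lowest in embryos 2 and 3 (medians of -0.24 and -0.54, against 0.18 and 0.12 in embryos 4 and 5), prefoldin was low in embryos 2, 3 and 4 (-0.40, -0.85 and -0.46, against 0.20 in embryo 5), and the DNAJC medians of all 4 embryos lay between -0.13 and 0.16. HSPA8 stood at 1505, 973.1 and 913.6 in WT and at 742.7, 333.2, 1399 and 1068 in KO (-0.50, SE 0.50), with embryos 2 and 3 below every WT embryo and embryos 4 and 5 within the WT range. HSPA4 (-0.56, SE 0.41) and HSPA9 (-0.43, SE 0.46) were also below 0, and HSPH1 (0.18, SE 0.42) and HSPA14 (0.62, SE 0.54) above. HSP90AA1 had -0.21 (SE 0.37), HSP90AB1 -0.02 (SE 0.38) and HSPE1 -0.33 (SE 0.49). With the covariate for Y-linked counts, HSPA9 (0.29), HSP90AA1 (0.14), HSP90AB1 (0.11) and HSPE1 (0.53) were above 0, HSPA14 was below (-0.33) and HSPA8 was at -0.04. The 5 prefoldin subunits ran from -0.77 (PFDN6) to -0.01 (PFDN4), and BAG6 had -0.03 (SE 0.36). BAG2, the lowest of its family, stood at 40, 26.1 and 29.8 in WT and at 24.5, 2.33, 19.9 and 62.3 in KO (-0.83, SE 0.75, and 0.96 with the covariate). Its log2 fold change ranged from -1.42 to -0.01 when each embryo was left out in turn.

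Among the CDX2 KO J-domain proteins, 10 of 23 tested were above 0 (39.5% over all transcripts), with a median of -0.16. With edgeR or DESeq2 13 of 23 were above 0 (medians 0.09 and 0.10), without embryo 3 it was 14 of 23 (0.04), and with the covariate for Y-linked counts 13 of 23 (0.03). DNAJC3, an ER co-chaperone that inhibits the kinase PERK, stood at 79.3, 48.2 and 65.3 in WT and at 29.4, 11.7, 39.0 and 53.7 in KO (-1.08, SE 0.50, adjusted p 0.900, limma, and -0.23 with the covariate), and DNAJB11, the J-domain partner of ER HSP70, had -0.70 (SE 0.47, and -0.40 with it). HSPBP1 had a log2 fold change of -1.63 (SE 0.88), with 22.8, 18.2 and 27.5 in WT and 11, 0, 11.6 and 20.9 in KO, where embryo 3 was at 0 and 3 counts correspond to 6.99. It was -0.66 without embryo 3 and -0.10 with the covariate for Y-linked counts.

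A list of 45 further genes of the chaperone network (HSP90 co-chaperones, HSP70 adaptors, the remaining prefoldin subunits and relatives, phosducin-like proteins, R2TP, mitochondrial folding and proteolysis, heat shock factors) gave no call by limma in either table. In GATA3 KO embryos 34 were tested and 12 had an unadjusted p under 0.05 by limma (22.6% of all transcripts did). Of these 12, 10 were higher in KO (14.8% of all transcripts in that direction). Lying wholly above WT were 3 genes and wholly below also 3, against 11.9% and 7.05% of all transcripts. The median log2 fold change was 0.24 against 0.11 over all transcripts. Highest was VBP1, the prefoldin subunit outside the PFDN symbols, at 43.4, 25.9 and 24.9 in WT, at 105.6 in KO embryo 3, close to that in embryos 4 and 5, and at 36.9 in embryo 6 (1.35, SE 0.35, adjusted p 0.0514). VBP1 lies on the X chromosome, and embryo 6, the only GATA3 KO embryo with Y-linked counts above 3, lay within its WT range. The covariate for Y-linked counts takes the KO difference from that embryo alone, so the part of embryo sex in these values was not tested. AHSA1, which stimulates the ATPase of HSP90, had 1.03 (SE 0.30, adjusted p 0.0638), and TRAP1, the mitochondrial HSP90, -0.97 (SE 0.43, adjusted p 0.192). These 3 were named after their values were seen. VBP1 was also the single gene of the list that edgeR and DESeq2 called in GATA3 KO embryos. Those fits called 126 and 158 of 4271 transcripts. In CDX2 KO embryos 37 were tested and 0 had an unadjusted p under 0.05 by limma (3.27% of all transcripts did). There edgeR and DESeq2 called 0 of the list, and 1 and 9 of 5719 transcripts. The median was -0.18 against -0.15 over all transcripts.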

How the data were processed

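Polyadenylated RNA of 11 single blastocysts was sequenced by the Smart-seq2 procedure. The authors trimmed reads with Trimmomatic, used HISAT2 with the build ARS-UCD1.2 for alignment, featureCounts for counting and DESeq2 for normalization, in 1 table for each KO group with the 3 WT embryos. The deposited signal values are counts divided by a size factor. In every column 100.0% of values were whole multiples of the smallest value above 0 (tolerance 0.001), which was taken as 1 count. The WT counts of shared transcripts differed between the tables by a factor of 1.80 to 1.87. Levels were therefore not set across tables, and the true read depth of a library is not known. Deposited columns of the authors' own comparisons (log2 fold changes and their errors, test scores, p-values) were not used. KO embryos are numbered as in the table columns, which are not the replicate numbers of the labels.

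Symbols for the accessions came from a table of RefSeq genes (ARS-UCD2.0; named were 98.6% of transcripts in each table). Members and gene lists were chosen with earlier results of these data known. Log2(normalized count + 1) was fitted by limma 3.58.1 (R 4.3.3) with a trended prior, for transcripts whose mean reached 10, and p-values were adjusted by Benjamini-Hochberg over all of these. This scale understates changes of low transcripts. Only the 7 embryos of a table entered its fit. "Wholly above" or "wholly below" means that no KO embryo overlapped with a WT embryo. Recovered counts were also tested with edgeR 4.0.16 and DESeq2 1.42.0. The other settings were another fold threshold, pseudocount, filter, scaling, no trend, a covariate for Y-linked counts, each embryo left out, and, chosen after seeing the data, transcripts of both tables only and CDX2 KO without embryos 2 and 3. The fit was tested on simulated data. Genes were named when called, when on a set list (TRiC, prefoldin, HSP90, HSPA8, HSPA9, HSPH1, HSPA4, HSPD1, HSPE1, DNAJA1, HSPB1 and BAG6), or when highest or lowest in their family. BAG1 and HSPA14 in CDX2 KO and DNAJC3 and DNAJC10 in GATA3 KO were outside this rule and chosen after their values were seen. Sequences were not used here.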

Additional observations from a re-analysis of the deposited data

Results flagged for a closer look

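Among 61 sets of 4 KO embryos examined, in each of which an outlying embryo is marked by chance about 1 time in 20 (3.05 sets), 2 held an embryo far from the other 3. HSP90AB1 stood at 791.5 in GATA3 KO embryo 6, where the other 3 GATA3 KO embryos lay between 938.3 and 968.2, and the gap was 0.831 of the whole range. PFDN1 stood at 65.5 in GATA3 KO embryo 4, where the others lay between 83.4 and 87.0, and the gap was 0.830 of the range.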

How the results depend on the processing

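In GATA3 KO embryos the count of called members was 3 and ranged from 0 to 9 when each embryo was left out in turn. It was 0 without the trend of the prior and 0 with the covariate for Y-linked counts, and between 2 and 4 under the other settings. With a mean of at least 100 the called members were CCT8 and TCP1, since CCT6A, DNAJA1 and DNAJB1 were below that mean, and DESeq2 and a pseudocount of 5 called CCT8 beside those 3. The median log2 fold change of the members, 0.40, was 0.20 without a filter, where all 66 rows entered, and 0.27 after quantile normalization, and stayed above 0 in every setting run. In CDX2 KO embryos the count of 0 became 1 with DESeq2 (HSPA1A) and was 0 in all other settings run. The median of the members there, -0.34, ranged from -0.54 to -0.01 when each embryo was left out, and was above 0 with the Y-linked covariate (0.16) and without embryos 2 and 3 (0.15). The cause of these shifts was not tested.

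Over all transcripts tested, counts of calls in GATA3 KO embryos moved from 86 to 158 (DESeq2), 145 (pseudocount of 5), 126 (edgeR), 172 (no filter), 16 (no trend) and 1 (Y-linked covariate), and quantile normalization moved the median from 0.11 to 0.00. In CDX2 KO embryos the count of 0 became 9 with DESeq2. No paired analysis was possible because the KO columns could not be matched to the replicate numbers of the labels. The depth limits the low members, since 3 counts corresponded to normalized counts of 1.29 to 6.99.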

Other observations

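Members too low for the test are given here as values, and those named were chosen after their values were seen. HSPB8, a small heat shock protein, had 0 counts in all 3 WT embryos and 11, 1, 10 and 4 counts in CDX2 KO embryos 2 to 5, at least 7.84-fold higher against a floor of 3 counts over the WT group. Its partner BAG3, which joins it to HSP70 in the disposal of misfolded proteins, stood at normalized counts of 5.71, 3.16 and 2.29 in WT and 24.5, 0, 11.6 and 8.59 in CDX2 KO embryos, above every WT embryo in 3 of 4. In the GATA3 KO table BAG3 stood at 3.95, 2.16 and 1.55 in WT and 4.34, 7.75, 9.53 and 6.57 in KO, wholly above WT. All of these values rest on 20 or fewer counts in an embryo.

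DNAJB14, a J-domain protein of the ER membrane, stood at 15.9, 8.69 and 8.02 in WT and at 0, 0, 1.66 and 3.22 in CDX2 KO embryos, wholly below WT, where 3 counts corresponded to 1.61 to 6.99 in the KO embryos. In the GATA3 KO table its groups overlapped, at 10.3, 6.48 and 6.22 in WT and 2.89, 6.89, 4.76 and 10.7 in KO. HSPA2, an HSP70 known from testis, stood at 9.47, 4.32 and 4.66 in WT and 11.6, 13.4, 14.3 and 8.21 in GATA3 KO embryos, above every WT embryo in 3 of 4.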
